A study of Homo sapiens with 8 samples.

Results

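The genes described are 8 HLA genes of the MHC class II region (HLA-DRA, HLA-DRB1, HLA-DQB1, HLA-DPA1, HLA-DPB1, HLA-DMA, HLA-DMB and HLA-DOA), CD74 and CIITA. They were chosen by name, matched through their Ensembl identifiers to GENCODE symbols, and make up 10 of the 57500 genes in the count table. All 10 passed the filter on low counts and were among the 19171 genes tested. MHC class II molecules are pairs of an alpha and a beta chain that display peptides from the endocytic pathway to CD4+ T cells. CD74, the invariant chain, occupies the groove of a new class II pair until it is degraded in the endosome, and HLA-DM then exchanges its remaining fragment for a peptide while HLA-DO restrains HLA-DM. Transcription of these genes depends on CIITA, a coactivator that does not bind DNA itself and is recruited by the RFX complex, CREB1 and NF-Y at the X and Y boxes of class II promoters; it is made in professional antigen presenting cells, and in other cells after interferon gamma.

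RNA was sequenced from HEK293T cells, a human embryonic kidney line with the large T antigen of SV40, and not a professional antigen presenting cell. The DZNep group received 100 µM DZNep for 48 h and the Control group received vehicle for the same time, with 4 libraries numbered as replicates in each group. DZNep, or 3-deazaneplanocin A, resembles adenosine and blocks AHCY, the enzyme that breaks down S-adenosylhomocysteine, and so lowers cellular methylation. The labels name DMEM as the medium, whereas the study's methods name RPMI. The study calls the libraries biological replicates, but no source says that they came from separate cultures, and if they did not, the p-values measure only the spread between these samples.

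Library totals ranged from 25043058 to 44902779 counts, so that 1 read was worth 0.0210 to 0.0410 CPM (counts per 1000000 counts, with library sizes scaled by TMM). Mitochondrial genes took 3.02% to 13.7% of the counts in Control and 4.25% to 10.1% in DZNep. Over all genes tested, 2041 (10.6%) were higher and 2589 (13.5%) were lower with DZNep by both thresholds used, an absolute log2 fold change over 1 and an adjusted p under 0.05 in edgeR's quasi-likelihood test. All 7 markers listed for the HEK293T line were tested, and VIM (668 ± 217 CPM, SD, n = 4), NEFL, NEFM, PAX2, CDH2, KRT8 and KRT18 were present in Control. KRT8 was the only one of them to pass both thresholds (log2 fold change 2.44, adjusted p = 0.000133).

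The promoters of class II genes are shown first because the RFX complex and NF-Y are known to read letters in such promoters. RefSeq promoter windows (GRCh38.p14, 250 bases before to 50 bases after the start) were matched for 8 of the 10 genes, not for HLA-DRA and CIITA. Each stretch below runs 5′ to 3′ on the strand of its gene from 140 to 16 bases before the start, with capitals for the letters ACNGATG of an X box core and for GATTGG of a Y box, or CCAATC where the Y box letters lie on the opposite strand. The minus-strand stretches are HLA-DRB1 (chr6:32589864-32589988), HLA-DQB1 (chr6:32666673-32666797), HLA-DMA (chr6:32953113-32953237), HLA-DMB (chr6:32941044-32941168), HLA-DOA (chr6:33009607-33009731), the first of a pair of HLA-DPA1 entries (chr6:33073665-33073789) and CD74 (chr5:150412926-150413050), and the plus-strand stretch is HLA-DPB1 (chr6:33075850-33075974).
HLA-DRB1: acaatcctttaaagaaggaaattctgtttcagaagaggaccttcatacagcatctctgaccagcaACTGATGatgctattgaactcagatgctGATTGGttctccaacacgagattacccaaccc
HLA-DQB1: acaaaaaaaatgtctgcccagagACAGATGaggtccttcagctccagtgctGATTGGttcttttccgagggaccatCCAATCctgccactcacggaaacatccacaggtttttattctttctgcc
HLA-DMA: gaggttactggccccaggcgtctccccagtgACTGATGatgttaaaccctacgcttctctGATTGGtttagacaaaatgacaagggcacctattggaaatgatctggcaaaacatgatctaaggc
HLA-DMB: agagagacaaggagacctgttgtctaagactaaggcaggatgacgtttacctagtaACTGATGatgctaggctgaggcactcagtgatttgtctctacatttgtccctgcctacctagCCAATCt
HLA-DOA: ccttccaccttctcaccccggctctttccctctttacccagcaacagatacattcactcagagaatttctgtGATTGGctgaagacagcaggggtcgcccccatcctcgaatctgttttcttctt
HLA-DPB1: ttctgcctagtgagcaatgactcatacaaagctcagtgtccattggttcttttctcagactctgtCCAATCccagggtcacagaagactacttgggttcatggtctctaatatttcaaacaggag
HLA-DPA1: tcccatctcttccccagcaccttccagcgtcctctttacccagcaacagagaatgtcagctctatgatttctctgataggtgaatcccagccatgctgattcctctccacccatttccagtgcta
CD74: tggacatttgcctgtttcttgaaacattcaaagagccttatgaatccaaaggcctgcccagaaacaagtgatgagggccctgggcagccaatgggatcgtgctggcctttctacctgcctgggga

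On either strand, ACNGATG occurred in 7.65% and GATTGG in 15.1% of the 35116 RefSeq promoter windows of this length. HLA-DRB1, HLA-DQB1 and HLA-DMA held ACNGATG followed on the same strand by GATTGG, with starts 28, 28 and 29 bases apart. A spacing of 26 to 30 bases, which was set after these promoters had been read, occurred in 7 windows of all (0.0199%), those of HLA-DRB1, HLA-DRB5, HLA-DQB1, HLA-DMA, HSP90B1, SPDYE4 and LOC101929348. HLA-DMB held ACNGATG 84 bases before the start and the Y box letters at 22 bases on the opposite strand, without that spacing. HLA-DOA and HLA-DPB1 held only the Y box letters, 68 and 75 bases before the start, and CD74 held only ACNGATG, 209 bases before the start on the opposite strand and outside the stretch shown. Neither entry of HLA-DPA1 held either motif. Only exact matches to these letters were sought, so an X or Y box with other letters would be missed. These matches describe letters in fixed windows and show neither binding nor its absence.

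DZNep-treated cells had more transcript of most class II HLA genes, but not of CD74 or CIITA. Of the 10 genes, 5 were higher at both thresholds (HLA-DRA, HLA-DPB1, HLA-DMA, HLA-DMB and HLA-DOA), against 10.6% of all genes, and 0 were lower (0 also at an unadjusted p under 0.05 in edgeR, and 0 with DESeq2 or limma). At the adjusted p-value alone 6 were higher, HLA-DRB1 being the addition, against 19.1% of all genes. In the same 6 genes every DZNep library lay above every Control library, which held for 18.6% of all genes tested. The median log2 fold change was 1.16 over the 10 genes and 1.47 over the 8 HLA genes, beside -0.03 over all genes tested. Because the RNA came from whole cultures, more transcript per cell and more cells with the transcript cannot be told apart.

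**Figure D1:**
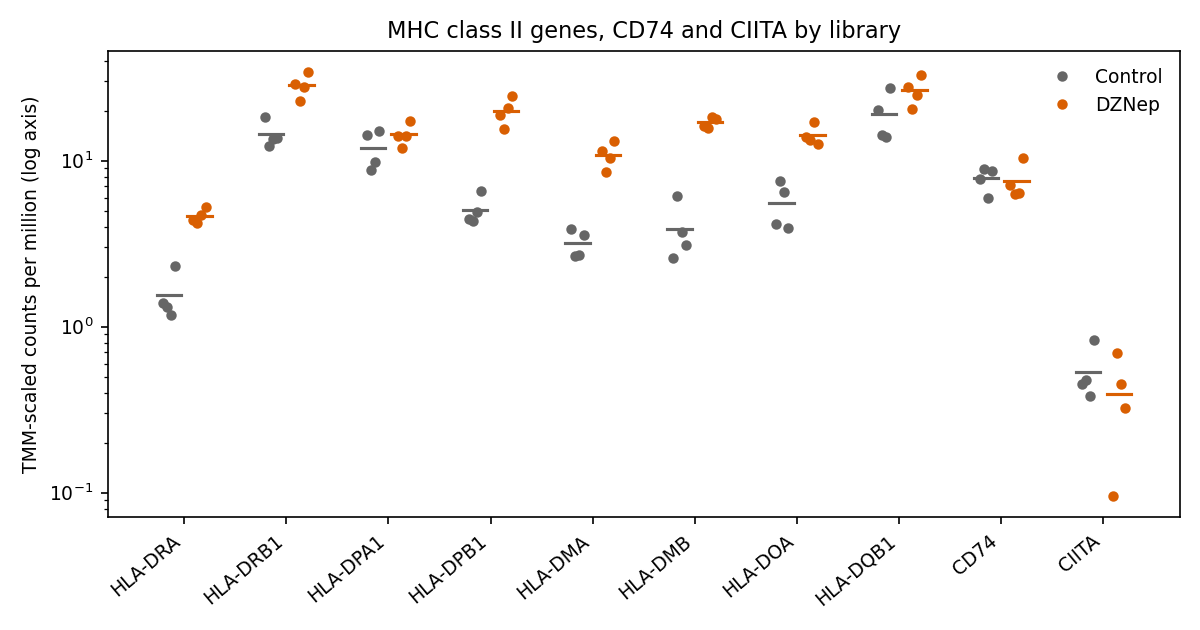
TMM-scaled CPM of the 10 genes on a log axis, with 1 point per library (grey for Control, orange for DZNep, n = 4 each) and a line at each group's mean. HLA-DRA, HLA-DRB1, HLA-DPB1, HLA-DMA, HLA-DMB and HLA-DOA show no overlap between groups, while HLA-DPA1, HLA-DQB1, CD74 and CIITA overlap.

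HLA-DR presents peptides with a nearly invariant alpha chain, HLA-DRA, and a polymorphic beta chain. HLA-DRA (ENSG00000204287, chr6:32439878-32445046, plus strand of GRCh38) was at 1.39, 1.31, 1.18 and 2.31 CPM in Control replicates 1 to 4 and at 4.38, 4.21, 4.70 and 5.24 CPM in the DZNep replicates. The groups did not overlap, and Control replicate 4 was the highest of its group. HLA-DRA rose from 1.55 ± 0.516 to 4.63 ± 0.455 CPM (SD, n = 4 each), which is 1.58 on the log2 scale (SE, the standard error, 0.25, adjusted p = 0.000671). HLA-DRB1 (ENSG00000196126, chr6:32577902-32589848, minus strand) was at 18.4, 12.3, 13.5 and 13.8 CPM in Control and at 29.1, 22.7, 27.7 and 34.2 CPM in DZNep. All 4 DZNep libraries were above the highest Control library, replicate 1. Its log2 fold change of 0.98 (SE 0.18, adjusted p = 0.00183) fell just short of the threshold of 1, and it exceeded that threshold under 8 of 15 alternative analyses. HLA-DRB1 and HLA-DRB5 are similar genes, and only unique reads were counted. Reads that match both would be left out, so their separate values are uncertain.

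HLA-DP is built from HLA-DPA1 and HLA-DPB1, which lie head to head on opposite strands, and only HLA-DPB1 was called. HLA-DPB1 (ENSG00000223865, chr6:33075990-33089696, plus strand) was at 4.43, 4.32, 4.89 and 6.61 CPM in Control and at 18.7, 15.4, 20.9 and 24.7 CPM in DZNep. The groups were far apart, and HLA-DPB1 rose 3.93-fold (log2 fold change 1.97, SE 0.20, adjusted p = 7.1e-05). HLA-DPA1 (ENSG00000231389, chr6:33064569-33080775, minus strand) was at 14.2, 8.76, 9.86 and 15.1 CPM in Control and at 14.1, 12, 14.2 and 17.4 CPM in DZNep. Its groups overlapped, since Control replicates 1 and 4 were as high as most DZNep libraries. The log2 fold change of 0.27 had a 95% interval from -0.20 to 0.73 and an adjusted p of 0.340. The annotation gives the 2 genes 96 shared exon bases, 1.67% of HLA-DPA1 and 1.84% of HLA-DPB1, where reads cannot be assigned without strand.

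HLA-DQB1 (ENSG00000179344, chr6:32659467-32668383, minus strand), the beta chain of HLA-DQ, was at 20.2, 14.2, 13.9 and 27.6 CPM in Control and at 27.9, 20.5, 24.8 and 32.7 CPM in DZNep. Control replicate 4 exceeded 2 of the DZNep libraries. The log2 fold change was 0.48 (SE 0.24), with a 95% interval from -0.06 to 1.02 and an adjusted p of 0.139. Each DZNep library was above the Control library of the same number, by 0.25 to 0.84 on the log2 scale. Blocking on the replicate number gave a log2 fold change of 0.52 (adjusted p = 0.00297), still under the fold threshold. An antisense gene, HLA-DQB1-AS1, overlaps 4.92% of the exon bases of HLA-DQB1 and had at most 7 reads in any library.

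Within Control, HLA-DPA1 and HLA-DQB1 were both highest in replicates 1 and 4. Those libraries had 7.76% and 13.7% of their counts in mitochondrial genes, against 3.02% and 3.16% in replicates 2 and 3. HLA-DMB and HLA-DOA had the opposite order and were lowest in Control replicates 1 and 4. The part of this library difference in the results was not tested.

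The peptide exchange genes rose together. HLA-DMB (ENSG00000242574, chr6:32934629-32941028, minus strand), the beta chain of HLA-DM, was at 2.58, 6.10, 3.72 and 3.12 CPM in Control and at 16.2, 15.7, 18.4 and 17.9 CPM in DZNep. The lowest DZNep library was above the highest Control library, replicate 2, and the log2 fold change of 2.13 (SE 0.25, adjusted p = 0.000152) was the largest of the 10 genes. HLA-DMA (ENSG00000204257, chr6:32948613-32969094, minus strand), its alpha chain, was at 3.86, 2.66, 2.69 and 3.58 CPM in Control and at 11.4, 8.54, 10.4 and 13.2 CPM in DZNep. No DZNep library came near the Control range, and the log2 fold change was 1.77 (SE 0.20, adjusted p = 0.000127). HLA-DOA (ENSG00000204252, chr6:33004182-33009591, minus strand), the alpha chain of HLA-DO, was at 4.18, 7.55, 6.48 and 3.92 CPM in Control and at 13.9, 13.3, 17.0 and 12.6 CPM in DZNep. Again the groups did not overlap, and the log2 fold change was 1.35 (SE 0.23, adjusted p = 0.00120).

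HLA-DMA shares 160 exon bases with a readthrough gene (ENSG00000248993) and 55 with BRD2 on the opposite strand, together 8.53% of its exon bases. BRD2, a bromodomain gene, was itself at 505 ± 84.1 CPM in Control and 1029 ± 110 CPM in DZNep. HLA-DMB shares 9.49% of its exon bases with the readthrough gene, which was at no more than 0.0842 CPM in any library. The part of BRD2 reads in the values of HLA-DMA was not tested.

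CD74 (ENSG00000019582, chr5:150401637-150412969, minus strand) did not follow the HLA genes. It was at 7.71, 8.93, 6.0 and 8.71 CPM in Control and at 7.18, 6.31, 6.36 and 10.4 CPM in DZNep. The groups overlapped throughout, with a log2 fold change of -0.05 and a 95% interval from -0.53 to 0.42 (adjusted p = 0.858), whose sign turned under 4 of 15 alternative analyses. The interval leaves out a log2 fold change of 1 in either direction. The 8 HLA genes summed to 64.7 ± 9.63 CPM in Control and 136 ± 18.6 CPM in DZNep. Over CD74 in the same library, that sum was 8.98, 6.40, 9.37 and 8.72 in Control and 18.9, 17.8, 21.7 and 15.2 in DZNep. The ratio did not overlap between groups (8.37 ± 1.34 against 18.4 ± 2.69, two-sided exact permutation p = 0.0286, the smallest that 4 against 4 allows).

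CIITA (ENSG00000179583, chr16:10866222-10943021, plus strand), the coactivator of the class II promoters, was barely detected in either group. It had 11, 20, 16 and 29 reads in Control and 4, 33, 20 and 11 reads in DZNep, equal to 0.537 ± 0.204 and 0.392 ± 0.250 CPM. In CPM the groups overlapped, and Control replicate 4 (0.837 CPM) was the highest of the 8 libraries. The log2 fold change of -0.44 had a 95% interval from -1.58 to 0.71 (adjusted p = 0.531), so a rise to more than 2 times the Control level lay outside the interval, whereas a fall of that size did not. The annotation gives CIITA 21.6% of its exon bases in common with other counted genes, 2424 of them with DEXI on the opposite strand, where reads cannot be told apart without strand.

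**Figure D2:**
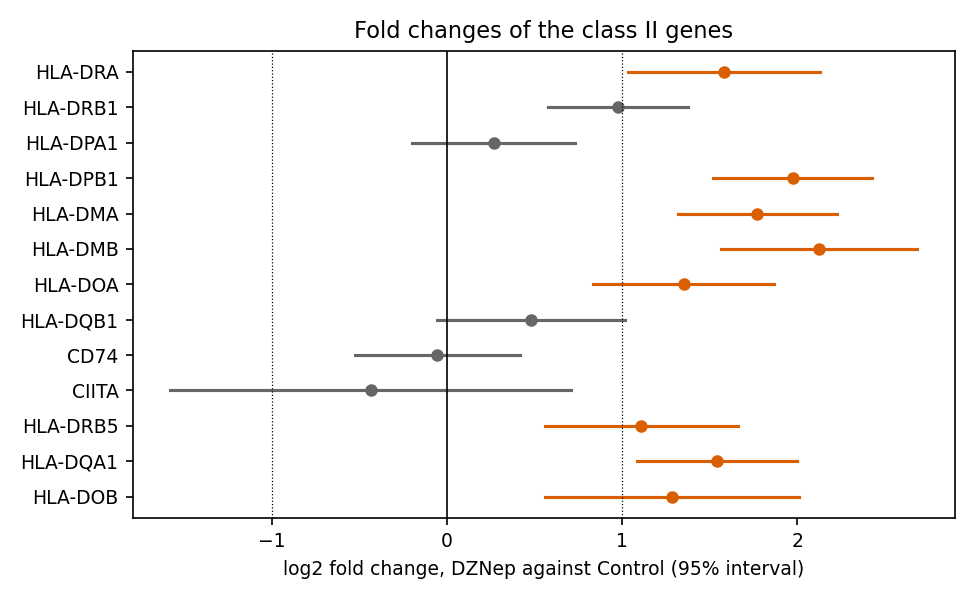
Log2 fold changes of DZNep against Control with 95% intervals for the 10 genes and for the tested class II loci HLA-DRB5, HLA-DQA1 and HLA-DOB. Orange marks genes higher at both thresholds and dotted lines mark log2 fold changes of -1 and 1. HLA-DMB is highest at 2.13, HLA-DRB1 sits at 0.98, and the intervals of HLA-DPA1, HLA-DQB1, CD74 and CIITA include 0.

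In a two-sided exact permutation test of mean CPM, the 6 genes without overlap each gave p = 0.0286, again the smallest value possible. The other genes gave exact permutation p-values of 0.114 for HLA-DQB1, 0.286 for HLA-DPA1, 0.371 for CIITA and 0.886 for CD74.

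Levels were compared between genes as CPM per kb, over the length of all annotated exons of a gene. That length ran from 1244 bases for HLA-DRA to 22553 for CIITA and can exceed that of a transcript. The order of the genes therefore depends on the annotation as well as on the reads. In Control, HLA-DRB1 was at 4.69 ± 0.879 and HLA-DQB1 at 3.88 ± 1.31 CPM per kb, with overlapping ranges. HLA-DPA1 followed at 2.09 ± 0.548 CPM per kb, below the range of HLA-DQB1, and then CD74 (1.73), HLA-DOA (1.39), HLA-DMA (1.27), HLA-DRA (1.24), HLA-DPB1 (0.969) and HLA-DMB (0.841 CPM per kb), each overlapping its neighbour. CIITA was far below all of them at 0.0238 ± 0.00903 CPM per kb.

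After DZNep, HLA-DRB1 stood alone at 9.23 ± 1.53 CPM per kb, above the range of HLA-DQB1 (5.41 ± 1.04). HLA-DMA (4.32), HLA-DPB1 (3.82), HLA-DRA (3.72), HLA-DMB (3.69) and HLA-DOA (3.56 CPM per kb) followed with overlapping ranges. HLA-DPA1 (2.51) came after them, below the range of HLA-DOA. Its highest library (3.03) was above the lowest of HLA-DPB1 (2.95), and the range of HLA-DPA1 also overlapped that of CD74 (1.67 CPM per kb). By their means on this scale, HLA-DPA1 and CD74 went from 3rd and 4th place to 8th and 9th.

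The reads of beta and alpha genes were compared in 5 pairs, chosen after the values had been seen. The ratios were not scaled for exon length, so the level of a ratio is not one of transcript numbers. Reads of HLA-DPB1 over those of HLA-DPA1 gave ratios of 0.312, 0.493, 0.496 and 0.436 in Control and of 1.33, 1.29, 1.47 and 1.42 in DZNep. The ratio was below 1 in all 4 Control libraries and above 1 in all 4 DZNep libraries. HLA-DQB1 over HLA-DQA1 went the other way, from 17.2 ± 3.92 to 8.36 ± 1.37. Of these genes, HLA-DQA1 rose (log2 fold change 1.54) and HLA-DQB1 did not pass. Both pairs had an exact permutation p of 0.0286, which became 0.0714 after adjustment over the 5 pairs and so did not pass 0.05. HLA-DRB1 over HLA-DRA was 10.0 ± 3.11 in Control and 6.12 ± 0.580 in DZNep (exact permutation p = 0.0857, adjusted 0.143). HLA-DMB over HLA-DMA (exact permutation p = 0.343, adjusted 0.429) and HLA-DOB over HLA-DOA (0.8286 both before and after adjustment) overlapped between groups.

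**Figure D3:**
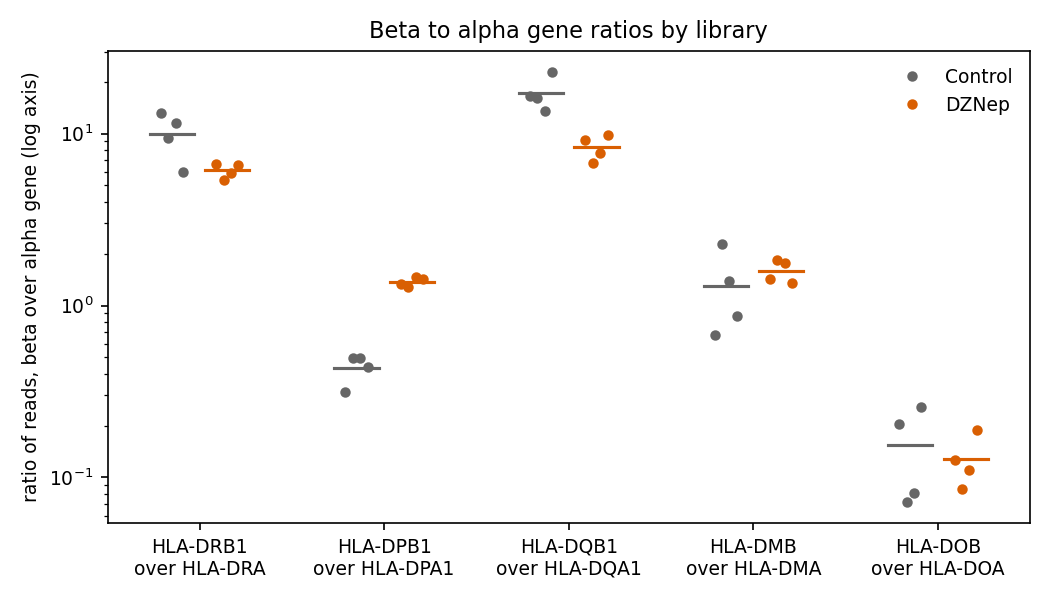
Ratio of reads of each beta gene over its alpha gene on a log axis, 1 point per library (grey Control, orange DZNep, n = 4 each) with a line at the mean. The HLA-DPB1 ratio lies under 0.5 in Control and above 1.2 in DZNep, and the HLA-DQB1 ratio falls from a mean of 17.2 to 8.36.

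Other class II loci with enough reads to test were higher as well. Of 14 further loci and pseudogenes listed, 12 were in the count table and 3 were tested. All 3 were higher at both thresholds (10.6% of all genes were), with a median log2 fold change of 1.28. HLA-DQA1, the alpha chain of HLA-DQ, went from 1.09 ± 0.166 to 3.16 ± 0.150 CPM (log2 fold change 1.54, adjusted p = 0.000287). HLA-DOB, the beta chain of HLA-DO, had a log2 fold change of 1.28 (adjusted p = 0.0102) and HLA-DRB5, a second DR beta chain, one of 1.11 (adjusted p = 0.00529). HLA-DRB5 dropped under the fold threshold without Control replicate 3 (0.997) and without DZNep replicate 4 (0.95). The 9 untested loci had at most 23 reads in any library, and 3 of them had 0 reads in all 8.

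The class II genes share a stretch of 649.8 kb of chromosome 6 with other genes, from the first base of HLA-DRA to the last of HLA-DPB1. The count table held 34 genes there, and 19 of them were tested. Of the 11 tested genes outside the 8 described, 5 were higher (HLA-DRB5, HLA-DQA1, HLA-DOB, BRD2 and ENSG00000223837) and 0 were lower, beside 10.6% and 13.5% of all genes. ENSG00000223837, a gene inside BRD2, had 1 to 6 reads in Control and 14 to 28 in DZNep, and entered the test only through the latter. BRD2 had a log2 fold change of 1.03 (adjusted p = 0.00122), which dropped to between 0.93 and 1.00 when Control replicate 2 or 3 or DZNep replicate 2 or 4 was left out. The peptide loading and proteasome genes of the class I pathway, which lie between HLA-DOB and HLA-DMB, were not called. TAP1 had a log2 fold change of 0.43 (adjusted p = 0.0309), TAP2 of -0.61 (0.00832), PSMB9 of 0.52 (0.0921) and PSMB8 of -0.29 (0.653). HLA-DOB and HLA-DMB, on either side of them, were both higher.

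**Figure D4:**
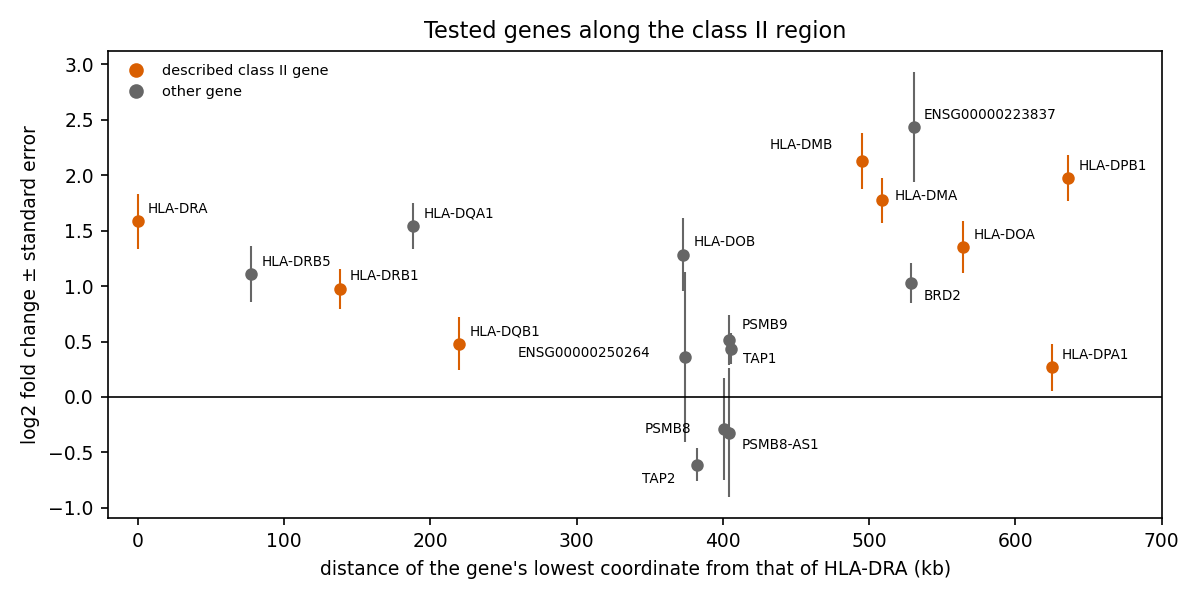
Log2 fold change (± standard error) of the 19 tested genes of the class II region against distance in kb from HLA-DRA. Orange marks the 8 HLA genes described and grey the others. TAP1, TAP2, PSMB8 and PSMB9 lie between -0.61 and 0.52, with HLA-DOB (1.28) on one side and HLA-DMB (2.13) on the other.

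Transcripts of the proteins that read the class II promoter were examined next. None of the 7 genes of the RFX complex, NF-Y and CREB1 passed both thresholds in edgeR, DESeq2 or limma (median log2 fold change -0.17), and at an unadjusted p under 0.05 in edgeR 2 were higher and 1 was lower. RFX5, the DNA-binding RFX subunit, went from 97.8 ± 16.8 to 164 ± 11.3 CPM without overlap (log2 fold change 0.75, adjusted p = 0.00405). RFXAP, another RFX subunit, moved in the other direction, from 20.2 ± 4.00 to 10.1 ± 0.235 CPM. Its log2 fold change of -0.995 (adjusted p = 0.00102) stayed just inside the fold threshold and passed it without Control replicate 1 (-1.03), Control replicate 4 (-1.12) or DZNep replicate 3 (-1.005). RFXANK had a log2 fold change of -0.17 (adjusted p = 0.660). Of the NF-Y subunits, NFYA had 0.81 (0.0102), NFYB -0.25 (0.167) and NFYC 0.04 (0.897), and CREB1 had -0.39 (0.183).

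Among 8 cofactors that CIITA is known to engage, 3 were higher and 0 lower, beside 10.6% and 13.5% of all genes, and the median log2 fold change was 0.72. CDK9, the kinase that releases paused RNA polymerase, went from 48.9 ± 8.92 to 127 ± 12.5 CPM (log2 fold change 1.37, adjusted p = 0.000156). The acetyltransferase genes CREBBP and KAT2A had log2 fold changes of 1.25 (adjusted p = 0.00365) and 1.07 (0.000671). KAT2A lost its call without DZNep replicate 2 (0.92).

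At both thresholds, regulators of CIITA were called higher about as often as genes in general. Of 18 genes listed, 16 were tested, 2 were higher (10.6% of all genes were) and 0 were lower (13.5% were), with a median log2 fold change of 0.30. At the adjusted p alone, 6 of the 16 were higher, beside 19.1% of all genes, and 1 was lower, beside 4171 of the 19171 genes. PRDM1, a repressor of CIITA in plasma cells, rose from 0.785 ± 0.0947 to 3.97 ± 0.750 CPM (log2 fold change 2.33, adjusted p = 5.67e-05). IRF1, an activator of CIITA downstream of interferon gamma, rose from 9.10 ± 1.66 to 19.4 ± 2.08 CPM (log2 fold change 1.09, adjusted p = 0.000654). SOCS1, a brake on this signalling, had a log2 fold change of 1.27 that missed the threshold (adjusted p = 0.0702). It passed both thresholds with the replicate block (1.37, 0.00228), which gave 3 higher genes, and also with DESeq2 (1.32, 0.0333), with limma (1.41, 0.0414), with library sizes alone (1.40, 0.0345), with no filter beyond 1 read (1.32, 0.0295) and without Control replicate 4 (1.94, 0.00600).

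The rest of the interferon gamma pathway gave smaller values. IFNG itself had 0 reads in all 8 libraries. The receptor genes IFNGR1 and IFNGR2 had log2 fold changes of 0.47 (adjusted p = 0.0264) and -0.42 (0.105). The kinase genes JAK1 and JAK2 had 0.50 (0.184) and -0.28 (0.353). NLRC5, the relative of CIITA that acts on class I promoters, went from 1.25 ± 0.387 to 2.27 ± 0.243 CPM (log2 fold change 0.85, adjusted p = 0.0222) and passed the fold threshold without Control replicate 2 (1.09).

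**Figure D5:**
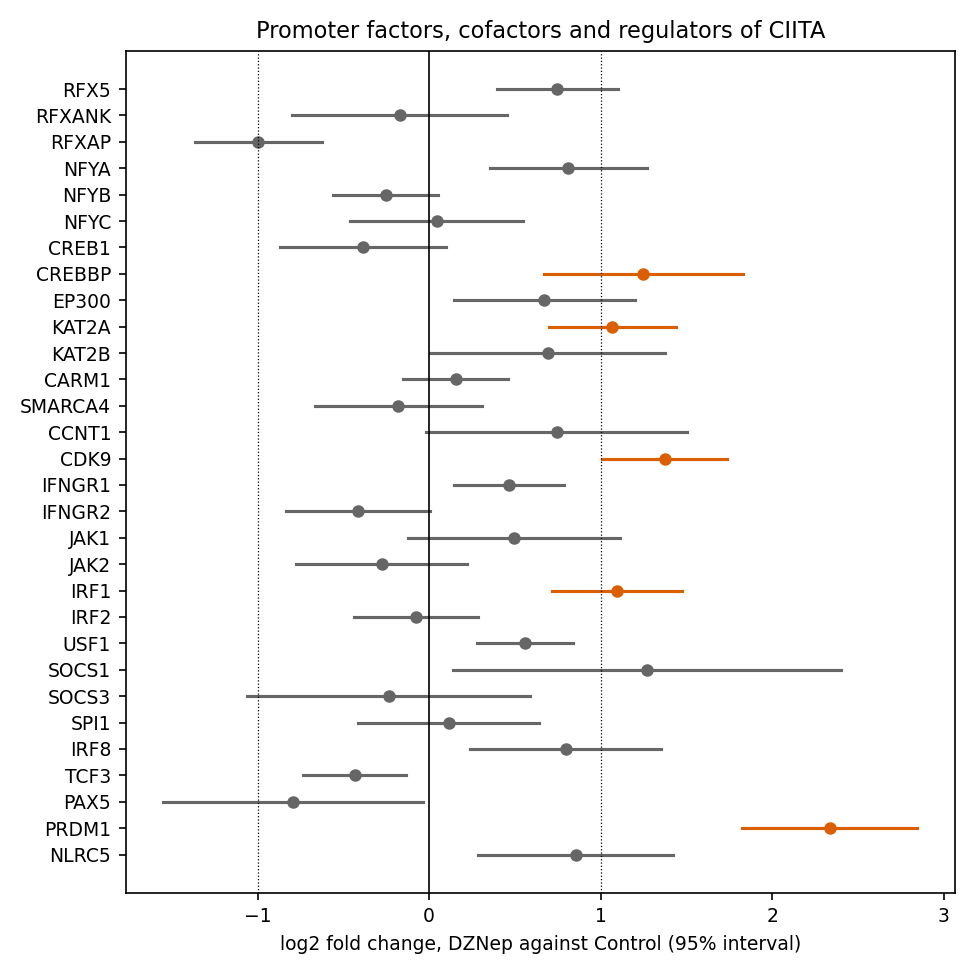
Log2 fold changes of DZNep against Control with 95% intervals for the promoter factors (RFX5 to CREB1), the cofactors (CREBBP to CDK9) and the regulators of CIITA (IFNGR1 to NLRC5). Orange marks genes higher at both thresholds: CREBBP, KAT2A, CDK9, IRF1 and PRDM1, with PRDM1 highest at 2.33.

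Endosomal genes that prepare class II molecules and peptides were also called higher at near the rate of all genes when both thresholds were used. Of 13 genes, 2 were higher (10.6% of all genes were) and 0 lower (13.5% were), with a median log2 fold change of 0.30. At the adjusted p alone, 4 of the 13 were higher, beside 19.1% of all genes, and 1 was lower, beside 4171 of the 19171 genes. CTSV, a cathepsin, and LGMN, an asparaginyl endopeptidase, had log2 fold changes of 1.16 (adjusted p = 0.000941) and 1.12 (0.000882). CTSS, the cathepsin that trims the invariant chain in antigen presenting cells, had -0.16 (adjusted p = 0.614). CTSH, another cathepsin, had a log2 fold change of -0.99 (adjusted p = 0.00588), just inside the fold threshold. It was called lower with the replicate block (-1.03, 6.01e-06) and without Control replicate 2 (-1.07), Control replicate 3 (-1.02) or DZNep replicate 4 (-1.17). CST3, a cathepsin inhibitor, was called lower when the same libraries were left out (-1.18 to -1.27) and had -1.01 (adjusted p = 0.0526) with all of them, so that those fits gave 2 lower genes.

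CD74 is also a surface receptor for the cytokine MIF. Of 6 genes listed for that role, CXCR2 (log2 fold change 1.99, adjusted p = 0.00197) and ACKR3 (1.80, 0.0207) were higher and 0 were lower. Of all genes, 10.6% were higher and 13.5% lower. The median log2 fold change of the 6 was 0.26. Both called genes encode chemokine receptors, but ACKR3 entered the test only through its reads in DZNep (17 to 26, against 1 to 13 in Control). Of the 6, 5 had at least 10 reads in every library, and 1 of them was higher in that fit. ACKR3 was at 0.135 ± 0.125 CPM in Control and lost its call without Control replicate 1 or 3 or DZNep replicate 1 or 3 (adjusted p from 0.0503 to 0.0581). Of 7 ligands by which antigen presenting cells signal to T cells, CD80, CD274 and CD86 were higher at both thresholds (10.6% of all genes were). They entered the test only through their reads in DZNep. With at least 10 reads required in every library, 4 of the 7 were tested and 0 were higher. CD80 (log2 fold change 3.25, adjusted p = 0.000140), CD274 (2.76, 0.00164) and CD86 (1.78, 0.0226) had at most 6, 9 and 5 reads in any Control library and at most 52, 74 and 14 in any DZNep library. CD86 lost its call without Control replicate 2 or DZNep replicate 3 or 4 (adjusted p from 0.0507 to 0.0513). CD80 and CD86 are costimulatory and CD274 is inhibitory.

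Genes that mark immune cells were examined, both those of cells that carry class II molecules and those of T cells. Summed over 21 markers, the level was 17.6 to 31.0 CPM in Control and 19.7 to 34.5 CPM in DZNep. In Control 6 or 7 markers were at 0 reads in a library, and in DZNep 1 to 3, with the B cell marker MS4A1 at 0 in all 8. LYZ, a myeloid marker, had 559 reads in DZNep replicate 2 and at most 24 in any Control library. Of the 15 markers tested, CD3G and CD79B were higher and CD8A was lower, beside 10.6% and 13.5% of all genes. CD3G and CD79B entered the test only through their reads in DZNep. With at least 10 reads required in every library, 11 were tested and 0 were higher. CD3G and CD3E, subunits of the T cell receptor complex, had 0 reads in every Control library, and 11 to 20 and 9 to 36 reads in DZNep (at least 4.10-fold and 6.01-fold higher, against a floor of 3 reads per library), and CD3E was too low to be tested. CD79B, a B cell receptor subunit, had at most 2 reads in any Control library and 12 to 25 in DZNep. CD8A, a T cell coreceptor, fell by 1.13 on the log2 scale (adjusted p = 0.00480).

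CD74 varied over the 8 libraries with some genes of that kind, but not with all of them. For example, LYZ was highest in DZNep replicate 2 (11.8 CPM), where CD74 was at 6.31 CPM, the lowest of its DZNep values. Among the 13624 genes whose log2 CPM averaged 1 or more, the highest Pearson correlations with CD74 on the log2 scale were those of TYROBP (r = 0.983), CTSS (0.981) and LAPTM5 (0.971), which are all leukocyte genes. TYROBP, one of the 21 markers, was at 3.22 ± 0.838 CPM in Control and 2.80 ± 1.01 CPM in DZNep, and like CD74 it was not called. The correlations of CD74 with the HLA genes ranged from -0.23 to 0.39. The 5 HLA genes that were called correlated with each other at 0.80 to 0.98, values that include the difference between groups. All of these values share the same 8 libraries and their scaling, and the part of other cells' RNA in the level of CD74 was not tested.

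For the HLA genes, the same search returned genes of varied kinds. HLA-DRA was closest to ATP2A1 (r = 0.995), GAL3ST1 and SH3BP1, and HLA-DRB1 to VAV1 (0.992), LINC01605 and TP53I3. HLA-DPB1 was closest to ALDH1A1 (0.996), SUSD2 and BCAS1, HLA-DMA to CDKN2D (0.996), ENSG00000259556 and VPS37D, HLA-DMB to ACP2 (0.998), SRPK3 and YIPF1, and HLA-DOA to CXCL16 (0.997), PXYLP1 and GPAT3. HLA-DPA1 was closest to YPEL3 (0.991), SCRN2 and PRR14, and HLA-DQB1 to PHKG2 (0.990), CNFN and SOX18. None of these genes belongs to the class II region, and each list is a description over 8 libraries.

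Transcripts of the target of DZNep and of the methyltransferase complex often studied with it were examined too. AHCY went from 237 ± 10.7 to 192 ± 31.1 CPM (log2 fold change -0.30, adjusted p = 0.142). The Polycomb repressive complex genes EZH2, EED and SUZ12 had log2 fold changes of -0.15 (adjusted p = 0.570), -0.35 (0.0748) and 0.45 (0.152), so none of the 4 genes was called in edgeR, and none in DESeq2 or limma. At an unadjusted p under 0.05 in edgeR, EED was the 1 gene lower.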

How the data were processed

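RNA of 8 HEK293T libraries, 4 Control and 4 DZNep by the labels, was sequenced as paired 150 bp reads. The authors used Trimmomatic 0.36 for trimming, STAR 2.5.2b for alignment to GRCh38 and featureCounts of Subread 1.5.2 to count unique reads in exons (versions per the methods and the submitters' processing notes). The annotation release and strandedness are not given in the sources used here. The authors deposited raw counts of 57500 genes, which are the basis of all tests. They also deposited a signal table of normalized counts, used in 2 alternatives, which was checked to be each count over its library's size factor, for the 19118 genes with more than 80 counts in all. No deposited fold change or p-value was used.

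Symbols were matched for 56410 identifiers, and coordinates and exon lengths are those of GENCODE release 44. The test was edgeR 4.0.16's quasi-likelihood test (R 4.3.3) with TMM on the 19171 genes passing filterByExpr, with no pairing term (the study's methods state none) and Benjamini-Hochberg adjustment. It was tested on simulated data. DESeq2 1.42.0 and limma 3.58.1 (log2(normalized count + 1)), other scalings, filters and thresholds, the replicate block and leaving out each library were alternatives. Deviations from the group means correlated at 0.15, 0.60, 0.53 and 0.75 between same-numbered libraries, and the replicate block takes the numbers to pair them. These values were not set against those of differently numbered libraries, so the pairing was not shown. The main fit and the permutation tests leave it out. Libraries of a group were told apart by a chi-square of 27.1 or more per degree of freedom and were kept as separate replicates. The floor of 3 reads covers counting error only.

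The members and gene lists were chosen from general knowledge with earlier results of these data known. Named genes are the 10 members, up to 3 called genes per list by absolute log2 fold change, all promoter factor and Polycomb genes, interferon pathway genes, tested genes of the region, and the 3 most correlated genes of each member with a mean of at least 100 reads. RFX and NF-Y motif letters, their spacing, the chain pairs, and the mention of SOCS1, CTSS, CTSH, CST3, CD3E, LYZ, TYROBP, VIM and MS4A1 were chosen after values were seen. The result of 1 gene under this rule is not reported here. Protein data of the study were not analysed here.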

Additional observations from a re-analysis of the deposited data

How the results depend on the processing

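The 5 members called higher kept their call under each alternative run, and with HLA-DRB1 the count was 6 under 8 fits, where its log2 fold change lay from 1.00 to 1.10, and at the adjusted p alone. Leaving out 1 library at a time gave 5 or 6 members higher and 0 lower. The replicate block also gave 5 and 0, with 2243 genes higher and 2736 lower over the whole table. It moved the adjusted p of HLA-DQB1 to 0.00297 and that of HLA-DPA1 to 0.0815, and changed no call at both thresholds among the members. The log2 fold change of CD74 turned positive with library sizes alone (0.0179, and an exact permutation p of 0.914 on that scale), without Control replicate 2 (0.0134), and without DZNep replicate 2 (0.0283) or 3 (0.0272), and over all libraries left out in turn it ran from -0.24 to 0.0283. Requiring at least 10 reads in every library left 1141 genes higher of 15870 tested, and left CIITA, CD80, CD86, CD274, CD3G and CD79B without a value. At the adjusted p alone, 3656 genes were higher and 4171 lower, beside 2041 and 2589 with the fold threshold. No scaling moved the median of all genes by more than 0.1 on the log2 scale. CIITA, at 4 to 33 reads, is the member that depth limits most, and its log2 fold change ran from -0.87 to -0.09 over 14 alternatives.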
